A study of Mus musculus with 9 samples.

Results

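The expression of 10 genes of metal handling was followed in mouse embryonic stem cells (mESC). They are the metallothioneins *Mt1* and *Mt2*, the iron importers *Tfrc*, *Slc11a2* and *Slc39a14*, the ferritin subunits *Fth1* and *Ftl1*, the iron exporter *Slc40a1*, and *Aco1* and *Ireb2*, which encode the iron regulatory proteins. The genes were chosen by symbol from knowledge of the pathway, with earlier results of these data known. All 10 were found among the 29069 genes of the deposited table, and all 10 were among the 18156 genes whose average over the 9 samples exceeded 5 normalised counts, the minimum for testing.

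All samples were cells of the D3 line, adapted to grow without a feeder layer and kept for 24 h in 3 different media (3 replicates per medium). The ground-state medium GS was N2B27 with the MEK inhibitor PD0325901 (1 μM), the GSK-3 inhibitor CHIR99021 (3 μM) and LIF (20 ng/mL). Differentiation medium (DM) was DMEM with glucose, glutamine, 2-mercaptoethanol and 10% fetal bovine serum (FBS), without the inhibitors or LIF. The NO medium was that same DMEM and serum with 250 μM of the nitric oxide donor DETA/NO added. DM vs. GS therefore differed in basal medium, serum, inhibitors and LIF at once, which cannot be told apart. NO vs. DM differed in DETA/NO alone. D3 is a single line, and each library came from one dish. The study describes its values in general as those of independent experiments and does not say so of these libraries in particular, so the p-values measure the spread between these samples, part of which may be technical.

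Cells take up iron bound to transferrin through the transferrin receptor, encoded by *Tfrc*, move it out of the endosome through Slc11a2, store it in ferritin and export it through ferroportin, encoded by *Slc40a1*. The iron regulatory proteins couple these steps to the iron supply by binding hairpins called iron-responsive elements (IREs). Bound in a 5′ UTR they block translation, and bound in a 3′ UTR they protect the mRNA from decay. The protein of *Aco1* binds RNA when it lacks the iron-sulfur cluster that makes it an aconitase, whereas the protein of *Ireb2* is removed by the ubiquitin ligase adaptor Fbxl5 when iron is plentiful. Nitric oxide is known to react with iron-sulfur clusters and with the zinc-binding thiols of metallothioneins, whose genes are switched on by zinc through the factor Mtf1. RNA-Seq reads only the mRNA level, so control of translation and of protein stability was not measured.

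The hairpins themselves are shown because they set apart the mRNAs whose level, or only whose translation, the iron regulatory proteins are known to act on. The annotated mouse transcripts (GENCODE M21, GRCm38) were searched for a C, 5 bases, CAGTGN and 5 bases that pair with the first 5, with G-T pairs allowed. Capitals mark the 6-base loop in the 30-base windows below.
*Fth1* (5′ UTR, chr19:9982732-9982761, plus strand): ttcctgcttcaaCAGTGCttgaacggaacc
*Ftl1* (5′ UTR, chr7:45459778-45459807, minus strand): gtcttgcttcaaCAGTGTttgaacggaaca
*Slc40a1* (5′ UTR, chr1:45925464-45925493, minus strand): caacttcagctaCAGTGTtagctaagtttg
*Tfrc* 1 (3′ UTR, chr16:32631219-32631248, plus strand): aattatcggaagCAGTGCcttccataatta
*Tfrc* 2 (3′ UTR, chr16:32631598-32631627, plus strand): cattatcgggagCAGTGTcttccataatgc
*Tfrc* 3 (3′ UTR, chr16:32631663-32631692, plus strand): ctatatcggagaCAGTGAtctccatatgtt
*Tfrc* 4 (3′ UTR, chr16:32631710-32631739, plus strand): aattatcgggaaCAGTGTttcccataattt
The *Fth1*, *Ftl1* and *Slc40a1* mRNAs held 1 match each in the 5′ UTR, and the *Tfrc* mRNA held 4 in the 3′ UTR. A match in a UTR was found in 160 of 21901 protein-coding genes (0.73%), in the 5′ UTR of 31 and in the 3′ UTR of 129. The pattern was not found in a UTR of the other 6 genes. In the further lists of iron genes described below, *Alas2*, the erythroid enzyme that starts haem synthesis, held 1 in the 5′ UTR.

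**Figure D1:**
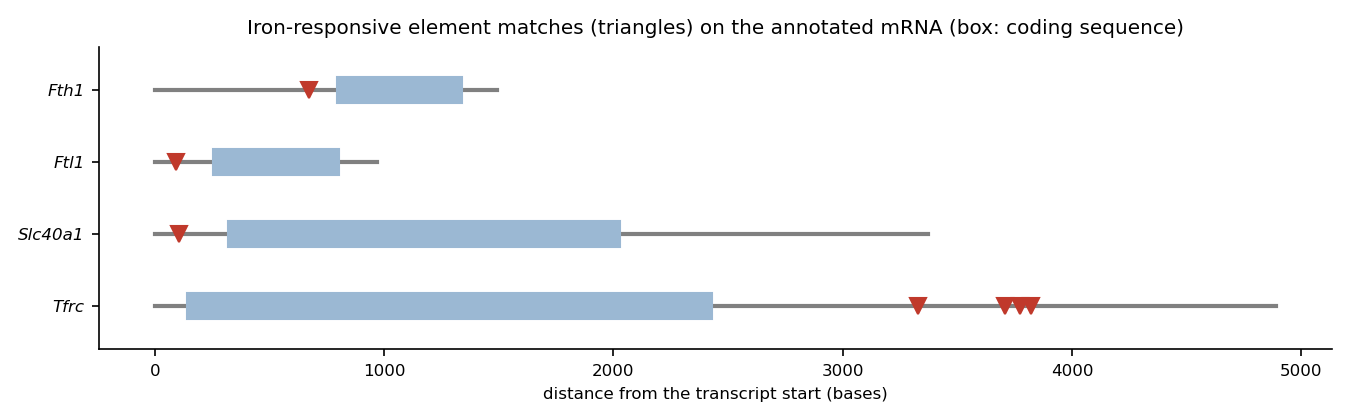
Position of the iron-responsive element matches on 1 annotated mRNA per gene, with the distance from the transcript start in bases on the x axis, the coding sequence as a box and each match as a triangle. *Fth1*, *Ftl1* and *Slc40a1* carry 1 triangle before the box, and *Tfrc* carries 4 after it.

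The metallothionein promoters are shown for the metal response element, whose core TGCNCNC is read by Mtf1. In the 300-base RefSeq promoters (GRCm38.p6), both strands were searched. The core was found 6 times at *Mt2*, 3 times on each strand, and 3 times at *Mt1*, all on the strand of the gene. At *Mt1*, only 1 of the 3 lay wholly before the RefSeq start, within the stretch from 26 to 14 bases before it. Of 32851 promoters, 51.0% held at least 1 match, 7.1% at least 3 and 0.225% at least 6. A promoter was given for 7 of the 10 genes, and among these *Tfrc* held 3 in 1 of its promoters and 1 in the other, *Aco1* held 1, and *Fth1*, *Ftl1* and *Ireb2* held 0. The stretch from 226 to 41 bases before the *Mt2* start in RefSeq holds 5 of its matches, in capitals. The RefSeq start differs from the GENCODE start of *Mt2* given further below.
*Mt2* promoter (chr8:94172392-94172577, plus strand): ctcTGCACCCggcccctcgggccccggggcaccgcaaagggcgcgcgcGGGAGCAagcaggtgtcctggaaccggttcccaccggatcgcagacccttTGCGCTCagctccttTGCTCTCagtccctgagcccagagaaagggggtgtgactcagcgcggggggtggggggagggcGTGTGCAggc

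In the 9 libraries between 14307523 and 27061091 reads were estimated to have been assigned to genes, so that 1 read was worth 0.7 to 1.32 normalised counts, and only *Slc40a1* was low enough for counting error to matter much. The summed level of the 8 stem cell markers was 81845 to 86234 in GS, 77585 to 88137 in DM and 48665 to 80862 in NO. For the 6 endoderm markers it was 80 to 132 in GS, 59 to 126 in DM and 141 to 487 in NO, with *Afp*, *Ttr* and *Foxa2* at or near 0 throughout, and for the 6 fibroblast markers 312 to 493, 410 to 438 and 378 to 402. The stem cell sum joins members that differed in direction. In DM vs. GS, 1 of the 8 had an adjusted p under 0.05, *Nanog* with a log2 fold change of -0.80 (adjusted p = 0.0311). *Zfp42* stood at 0.29 there (adjusted p = 0.512) and *Pou5f1* at 0.25 (adjusted p = 0.661). For NO vs. DM it was *Pou5f1* alone, at -0.95 (adjusted p = 0.0349), while *Nanog* stood at 0.43 (adjusted p = 0.155). The fibroblast sum likewise joins members that moved apart. *Thy1*, also a gene of many other cells, rose by 1.70 on the log2 scale in DM vs. GS (adjusted p = 0.000303) and by 1.47 in NO vs. GS (adjusted p = 0.000676), *Col1a1* rose by 1.49 in NO vs. GS (adjusted p = 0.0207), and *Pdgfrb* fell by 0.97 there (adjusted p = 0.0169). NO replicate 2 stood apart, with the lowest stem cell and the highest endoderm sum, and several results below are also given without it. The part of the marker difference in these genes was not tested otherwise. In these bulk samples, fewer cells of a type and less RNA per cell cannot be told apart.

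The 3 media were compared pairwise. Values are the deposited normalised counts, and log2 fold changes are differences of means on the log2(normalised count + 1) scale, tested with limma and adjusted over all 18156 genes. A gene passed with an adjusted p under 0.05 and was called when its change was also at least 2-fold. The change in *Slc39a14* was the largest of the 10, and *Tfrc* was the next.

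*Slc39a14* (chr14:70303469-70351425, minus strand, GRCm38) encodes a transporter that imports zinc and iron not bound to transferrin, and it was low in GS. Its normalised counts were 246, 516 and 401 in GS. They were 1858, 1576 and 1792 in DM. They were 1482, 2424 and 1606 in NO. Every value in both serum media lay far above every GS value, and the DM and NO values overlapped. The level rose 4.68-fold in DM vs. GS (log2 fold change 2.23 ± 0.25 SE, adjusted p = 0.000417) and 4.83-fold in NO vs. GS (2.27 ± 0.25, adjusted p = 0.00049). NO vs. DM gave 0.05 on the log2 scale, with a 95% interval from -0.51 to 0.60 (adjusted p = 0.924). Both changes against GS were called in each of 22 alternative analyses, with log2 fold changes from 1.93 to 2.46 in DM and from 1.98 to 2.51 in NO. Without NO replicate 2, the highest value, NO vs. GS was 2.05 (adjusted p = 0.000496).

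*Tfrc* (chr16:32608920-32632794, plus strand), the receptor through which most dividing cells obtain iron, moved the other way. Its normalised counts were 17046, 18425 and 24136 in GS. They were 12759, 12001 and 8767 in DM. They were 9433, 6550 and 8142 in NO. All GS values exceeded all others, while DM replicate 3 fell within the NO range. *Tfrc* fell by 1.30 ± 0.20 on the log2 scale in NO vs. GS, or 2.47-fold, with an adjusted p of 0.0015, and was called. This decrease passed in each of the 22 alternatives, with log2 fold changes from -1.43 to -1.05, and without NO replicate 2 it was -1.16 (adjusted p = 0.00301).

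In DM vs. GS, *Tfrc* fell by 0.83 ± 0.20 on the log2 scale (adjusted p = 0.0286), which was under 2-fold. This decrease no longer passed without any 1 of GS replicate 2, GS replicate 3, DM replicate 2, DM replicate 3 or NO replicate 3, with adjusted p from 0.05 to 0.133, with no minimum mean (adjusted p = 0.0536) and with no mean-variance trend (adjusted p = 0.075), while the log2 fold change over all 22 alternatives stayed between -0.94 and -0.58. NO vs. DM gave -0.47 with a 95% interval from -0.91 to -0.04 (adjusted p = 0.131). The *Tfrc* mRNA is poor in G and C (39.8%), and the libraries differed in the level of such mRNAs. GC deviations were taken over protein-coding genes with a mean above 50 normalised counts, of which 1348 were at or below 42% GC. Their median deviation from the mean of the medium was 0.23 in GS replicate 3 and -0.28 in DM replicate 3 on the log2 scale. These libraries gave the highest GS and the lowest DM value of *Tfrc*. After correction for GC content, *Tfrc* gave -0.58 in DM vs. GS (adjusted p = 0.0213), -1.11 in NO vs. GS (adjusted p = 0.000603) and -0.53 in NO vs. DM (adjusted p = 0.0219), so that each of the 3 comparisons then passed. This correction was chosen after the data were seen. NO vs. DM passed only in the 2 alternatives with GC correction and missed in the other 20 of 22, with adjusted p up to 0.364.

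*Slc11a2* (chr15:100387898-100425072, minus strand), the divalent metal transporter that carries iron across the endosomal membrane, was likewise lowest in NO. Its normalised counts were 976, 1033 and 904 in GS. They were 793, 790 and 885 in DM. They were 709, 493 and 599 in NO. The 3 media did not overlap in any pair. The level fell by 0.71 ± 0.15 on the log2 scale in NO vs. GS (1.63-fold, adjusted p = 0.0083), under 2-fold but past the test in all 22 alternatives. Without NO replicate 2, which had the lowest value, the change was -0.57 (adjusted p = 0.0185). DM vs. GS was -0.24 (adjusted p = 0.427) and NO vs. DM was -0.47 (95% interval -0.80 to -0.13, adjusted p = 0.0606). The latter passed after GC correction (-0.47, adjusted p = 0.0414) and without NO replicate 1 (-0.60, adjusted p = 0.0165). The gene gives mRNAs with and without an IRE, which a count per gene does not separate.

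**Figure D2:**
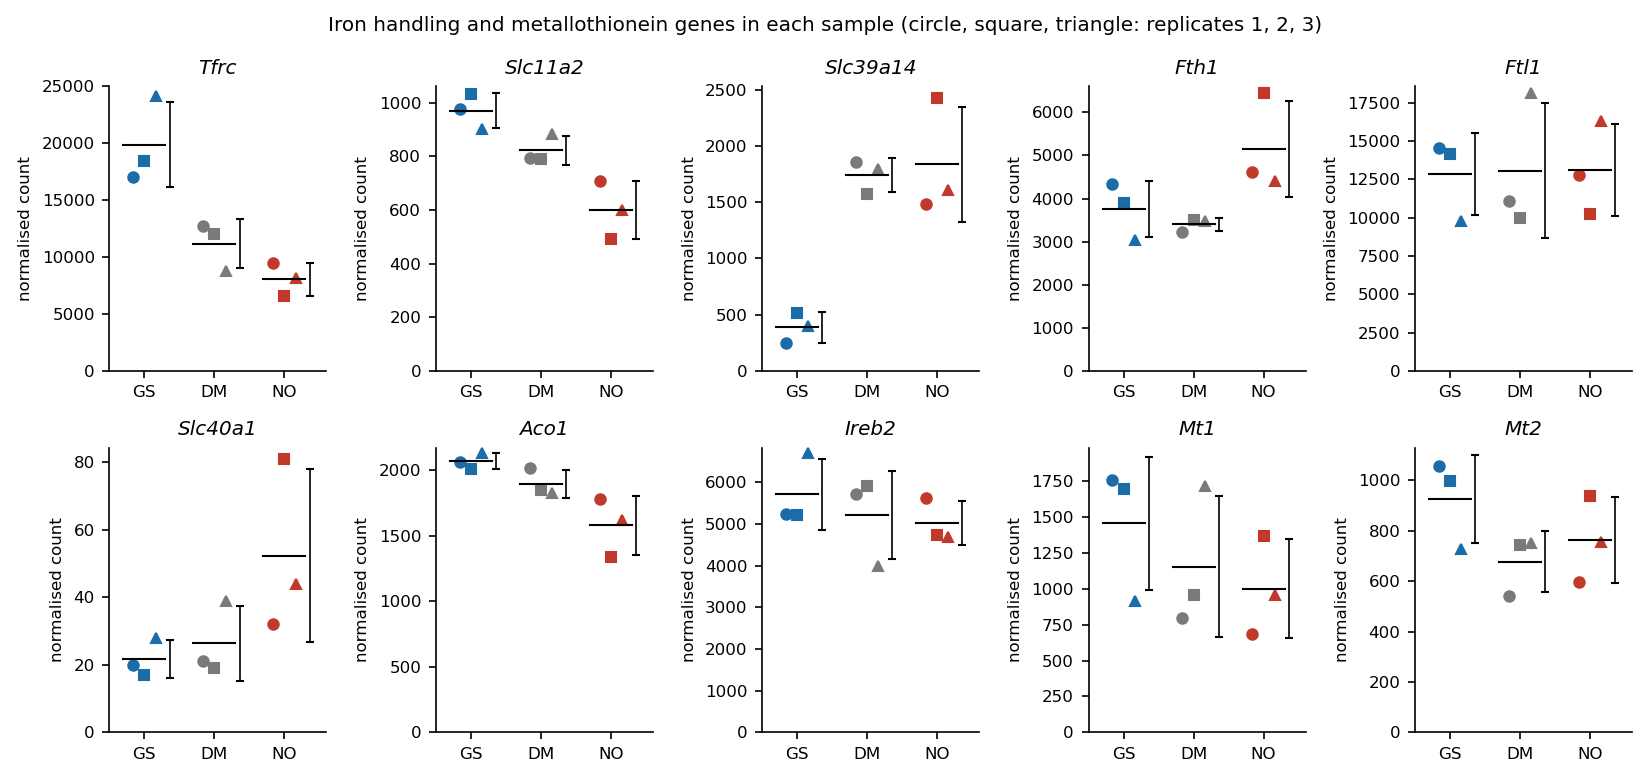
Normalised count of the 10 genes in each of the 9 samples, on linear axes from 0, with circles, squares and triangles for replicates 1, 2 and 3, a line for the mean and a bar for 1 SD (n = 3). *Slc39a14* is high in DM and NO, *Tfrc* is high in GS, and the metallothioneins and *Ftl1* overlap between media.

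*Fth1* (chr19:9980598-9985098, plus strand) encodes the heavy ferritin subunit, which oxidises iron for storage. Its normalised counts were 4335, 3886 and 3043 in GS. They were 3234, 3503 and 3477 in DM. They were 4623, 6443 and 4418 in NO. The NO values all lay above the values of the other media, with replicate 2 far ahead, and GS and DM overlapped. *Fth1* rose by 0.58 ± 0.17 on the log2 scale in NO vs. DM (1.49-fold, adjusted p = 0.0465), just past the threshold. It no longer passed in 11 of 22 alternatives. Leaving out GS replicate 1 or 2, any 1 DM replicate, or NO replicate 2 or 3 ended it, with adjusted p from 0.0571 to 0.14, and without NO replicate 2 the change was 0.41 (adjusted p = 0.14). NO vs. GS was 0.45 (adjusted p = 0.0868) and DM vs. GS was -0.13 (95% interval -0.51 to 0.25, adjusted p = 0.746).

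*Ftl1* (chr7:45457944-45459884, minus strand), the light ferritin subunit, passed the test in no comparison. Its normalised counts were 14553, 14174 and 9757 in GS. They were 11084, 9991 and 18115 in DM. They were 12775, 10254 and 16290 in NO. The 3 media covered much the same range, and the spread within each was wide. The log2 fold changes were 0.00, 0.03 and 0.03 in DM vs. GS, NO vs. GS and NO vs. DM, each with an SE of 0.25. The intervals, from -0.55 to 0.55 in DM vs. GS and from -0.52 to 0.58 in both others, still hold changes of up to 0.58 on the log2 scale. The *Ftl1* mRNA is rich in G and C (58.1%). The 1137 protein-coding genes above 58% GC and above a mean of 50 deviated by -0.17 in GS replicate 3 and by 0.20 in DM replicate 3. These libraries held the lowest GS and the highest DM value of *Ftl1*.

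Ferritin has many processed gene copies, and reads that aligned to several places were left out of the counts by the authors, so the *Fth1* and *Ftl1* levels are uncertain. The copies listed under ferritin symbols were near 0, with at most 18 normalised counts for *Fth-ps2*, 8 for *Ftl2* and 1 for *Fthl17*. In GENCODE M21, exons of *Ftl1* also overlap *Gm22133* and *Gm10252*, those of *Mt2* overlap *Gm45774* and those of *Slc11a2* overlap *Gm5475*. Of these only *Gm22133* lies on the strand of the gene it overlaps. The authors excluded reads of several genes. Whether reads were lost to these overlaps is not known, since it depends on their annotation and on use of the strand, which was not stated.

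*Slc40a1*, the only known exporter of iron, had the lowest level of the 10. Its normalised counts were 20, 17 and 28 in GS. They were 21, 19 and 39 in DM. They were 32, 81 and 44 in NO. All NO values lay above all GS values and overlapped with DM, and replicate 2 was again the highest. NO vs. GS was 1.16 ± 0.41 on the log2 scale, with a 95% interval from 0.26 to 2.05 that missed the test (adjusted p = 0.0664). It passed under scaling to equal totals (adjusted p = 0.0439) and without NO replicate 1 (1.45, adjusted p = 0.0263), and without NO replicate 2 it was 0.79 (adjusted p = 0.217). NO vs. DM was 0.93 (adjusted p = 0.145) and DM vs. GS was 0.23 (adjusted p = 0.813).

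For the mRNAs of the iron regulatory proteins, no comparison passed the test. *Aco1* stood at 2062, 2013 and 2134 normalised counts in GS. In DM it stood at 2018, 1846 and 1825. In NO it stood at 1782, 1337 and 1620. The NO values lay below all others. NO vs. GS was -0.40 ± 0.13 on the log2 scale and just missed the test (adjusted p = 0.0545), passing in 5 of 22 alternatives. Without NO replicate 2, the lowest value, it was -0.28 (adjusted p = 0.152). NO vs. DM was -0.27 (adjusted p = 0.188). *Ireb2* stood at 5251, 5209 and 6705 in GS, at 5729, 5913 and 4003 in DM and at 5639, 4738 and 4690 in NO. These ranges overlapped. The log2 fold changes of *Ireb2* were -0.15 in DM vs. GS (adjusted p = 0.708), -0.18 in NO vs. GS (adjusted p = 0.496) and -0.04 in NO vs. DM (adjusted p = 0.908), with an SE of 0.18. Its mRNA is as poor in G and C as that of *Tfrc* (39.0%), and after GC correction the first of these was 0.12 and the second 0.03.

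The metallothioneins, small cysteine-rich proteins that hold zinc and copper, passed the test in no comparison. *Mt1* had 1753, 1690 and 917 normalised counts in GS. In DM it had 794, 955 and 1711. In NO it had 682, 1366 and 955. The range within each medium was about as wide as the range over all of them. *Mt1* gave -0.36 in DM vs. GS (95% interval -1.08 to 0.37), -0.54 in NO vs. GS (-1.27 to 0.19) and -0.18 in NO vs. DM (-0.91 to 0.55), with adjusted p of 0.613, 0.278 and 0.751. A 2-fold decrease against GS is within these intervals, and in NO vs. DM a rise of more than 0.55 on the log2 scale is outside.

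The GS samples had 1057, 998 and 729 normalised counts of *Mt2*. The DM samples had 540, 744 and 750. The NO samples had 597, 937 and 757. The GS and DM ranges overlapped slightly, and NO lay across both. Its log2 fold change in DM vs. GS was -0.45 (95% interval -0.91 to 0.01, adjusted p = 0.256), and 1 of 22 alternatives passed, the GC correction with the replicate block (-0.59, adjusted p = 0.0467). In NO vs. GS it was -0.29 (-0.74 to 0.17, adjusted p = 0.356), and in NO vs. DM 0.16 (-0.29 to 0.62, adjusted p = 0.633). *Mt1* (chr8:94179082-94180327) and *Mt2* (chr8:94172664-94173568) lie side by side on the plus strand of chromosome 8, and the ratio of *Mt1* to *Mt2* within a sample ran from 1.14 to 2.28.

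**Figure D3:**
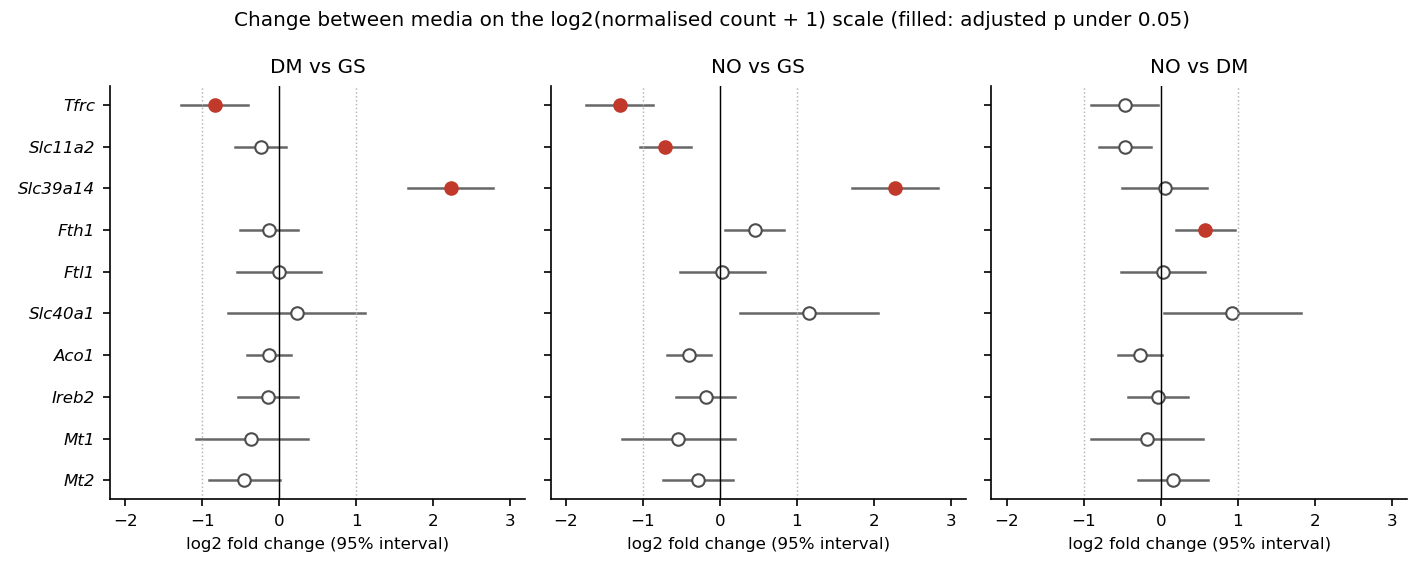
Log2 fold change of the 10 genes in the 3 comparisons on the log2(normalised count + 1) scale, with 95% intervals. Filled points have an adjusted p under 0.05 and dotted lines mark a 2-fold change. *Slc39a14* stands at 2.23 and 2.27 against GS, *Tfrc* at -0.83 and -1.30, and the intervals of *Mt1* and *Ftl1* span 0 throughout.

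Counted over the 10 genes, 1 was higher and 1 lower past the adjusted p in DM vs. GS, where 4.37% of all tested genes were higher and 2.32% lower. With the 2-fold minimum, 1 was higher and 0 were lower, beside 2.94% and 1.27% of all genes. In NO vs. GS, 1 was higher and 2 lower past the adjusted p, beside 13.4% and 6.64%, and 1 was called higher and 1 lower, beside 10.1% and 1.64%. In NO vs. DM, 1 was higher and 0 were lower past the adjusted p, beside 9.01% and 5.24%, and 0 were called by limma and 0 with precision weights, beside 6.78% higher and 1.77% lower. At an unadjusted p under 0.05, 2 of the 10 differed for DM against GS, 6 for NO against GS and 4 for NO against DM, where 19.9%, 34.6% and 31.3% of all tested genes did. The counts are too small to read against these shares. The median log2 fold change of the 10 genes was -0.14, -0.23 and -0.01 in the order of the comparisons, beside -0.001, -0.016 and 0.001 over all tested genes. The balance of all genes depended on the scaling. In NO vs. GS 1830 genes were called higher and 297 lower, and under quantile normalisation 1304 and 629. In NO vs. DM these counts were 1231 and 321, and then 959 and 514. Scaling to equal totals put the median of all genes in NO vs. GS at 0.092.

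Levels of different genes were compared as normalised counts per kilobase of annotated exon. In GS, *Ftl1* led with 9573.1, followed by *Tfrc* with 3212.4, *Mt2* with 1578.2, *Mt1* with 1166.4 and *Fth1* with 1082.3. *Ireb2* had 603.6 and *Aco1* 460.3, while *Slc11a2* had 152.8, *Slc39a14* 36.7 and *Slc40a1* 2.4. In NO, *Fth1* stood at 1487.8 and *Tfrc* at 1300.2, and *Slc39a14* at 174.2 lay above *Slc11a2* at 94.5. The exon lengths join all annotated transcripts, so the levels are approximate.

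*Tfrc* and *Fth1* carry their IREs at opposite ends, and their ratio within a sample does not depend on the scaling between samples. The ratio was not corrected for GC content, which is lower in the *Tfrc* than in the *Fth1* mRNA. The log2 ratio of *Tfrc* to *Fth1* was 1.98, 2.25 and 2.99 in GS. It was 1.98, 1.78 and 1.33 in DM. It was 1.03, 0.02 and 0.88 in NO. The NO samples lay below all others, and GS and DM met at replicate 1. The mean was 2.4 ± 0.52 (SD, n = 3) for GS, 1.70 ± 0.33 for DM and 0.64 ± 0.54 for NO. The difference was -1.76 in NO vs. GS (exact two-sided permutation p = 0.1), -1.05 in NO vs. DM (exact p = 0.1) and -0.71 in DM vs. GS (exact p = 0.2). With 3 samples against 3, an exact p cannot go below 0.1. Without NO replicate 2, NO vs. GS differed by -1.45 and NO vs. DM by -0.74. The highest GS ratio and the lowest DM ratio both came from replicate 3. In these libraries the 1348 protein-coding genes at or below 42% GC described above deviated most from the mean of the medium, by 0.23 and -0.28. How much of the ratio differences came from GC content was not tested.

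**Figure D4:**
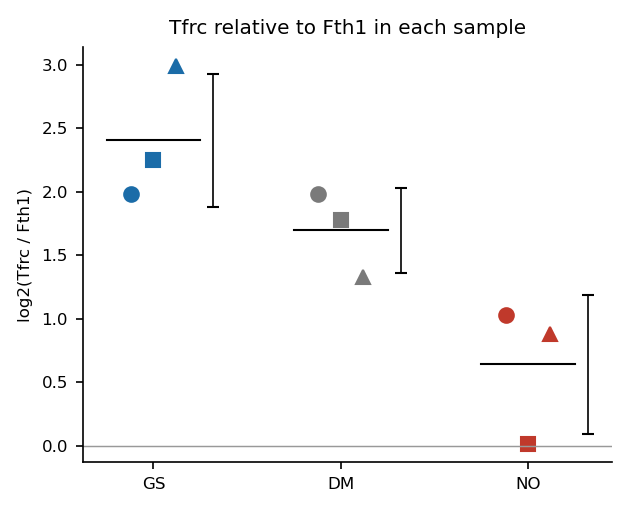
Log2 ratio of the *Tfrc* to the *Fth1* normalised count in each of the 9 samples, with a line for the mean and a bar for 1 SD (n = 3). NO samples lie between 0.02 and 1.03, below the GS samples (1.98 to 2.99) and the DM samples (1.33 to 1.98).

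Beyond the 10 genes, 64 genes of zinc and iron handling were listed, of which 61 were in the table and 57 were tested. Of the 57, 4 were called higher and 2 lower in DM vs. GS, 4 higher and 1 lower in NO vs. GS, and 2 higher and 1 lower in NO vs. DM. The shares of all genes were 2.94% and 1.27%, 10.1% and 1.64%, and 6.78% and 1.77%. Their median log2 fold changes were 0.04, -0.10 and -0.10. Several of the called genes were expressed at a low level.

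Among 10 tested genes of iron uptake, storage, export and sensing, both DM vs. GS and NO vs. GS had 3 called higher and 0 called lower. Of all tested genes, 2.94% were called higher and 1.27% lower in DM vs. GS, and 10.1% and 1.64% in NO vs. GS. A list of 10 is too small to read against these shares. *Trf*, which encodes transferrin, had normalised counts of 8, 5 and 3 in the GS samples, 18, 18 and 39 in the DM samples and 18, 47 and 42 in the NO samples. Its log2 fold change was 2.02 in DM (adjusted p = 0.0314) and 2.50 in NO (adjusted p = 0.00543) vs. GS. Only the rise in NO held without each library in turn, and the rise in DM was lost in 6 of the 9 cases (GS replicates 2 and 3, all 3 DM replicates and NO replicate 3, adjusted p from 0.0507 to 0.132).

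*Tfr2*, the other transferrin receptor that senses iron in liver, had normalised counts of 14, 27 and 9 in the GS samples, 59, 55 and 78 in the DM samples and 27, 27 and 24 in the NO samples. It rose by 1.99 on the log2 scale in DM vs. GS (adjusted p = 0.00795), opposite to *Tfrc*. In NO vs. DM it fell by 1.25 (adjusted p = 0.0467), a call that 7 of 9 left-out libraries ended (all but GS replicates 2 and 3, adjusted p from 0.0507 to 0.129). With the replicate block, which joined GS as well as NO and DM by replicate number, the call was lost as well (adjusted p = 0.0628). The ferrireductase *Steap2* rose by 1.14 in DM vs. GS (adjusted p = 0.0039), in each of the 9 cases, and by 0.81 in NO vs. GS (adjusted p = 0.0115), not without GS replicate 2 (adjusted p = 0.0506). *Steap3*, the ferrireductase of the erythroid endosome, rose by 1.46 in NO vs. GS (adjusted p = 0.00222), in each of the 9 cases and by 1.18 without NO replicate 2, and gave 0.79 in DM vs. GS (adjusted p = 0.0797). *Cybrd1*, the reductase at the cell surface, rose by 1.29 in NO vs. GS (adjusted p = 0.0271), which was lost without GS replicate 1 or 3 or NO replicate 2 or 3 (adjusted p from 0.0691 to 0.101).

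*Fbxl5*, the iron-sensing adaptor, had a log2 fold change of -0.56 in NO vs. GS (adjusted p = 0.0653). *Ncoa4*, the receptor that delivers ferritin to lysosomes, gave -0.17 in DM vs. GS (adjusted p = 0.542), 0.04 in NO vs. GS (adjusted p = 0.877) and 0.21 in NO vs. DM (adjusted p = 0.326). *Heph*, *Cp*, *Hamp* and *Lcn2* were too low to be tested, and *Ftmt* was not found.

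Of 20 genes of zinc handling, 1 was called higher and 2 lower in DM vs. GS, 1 higher and 1 lower in NO vs. GS, and 2 higher in NO vs. DM. The shares of all tested genes called higher and lower were 2.94% and 1.27%, 10.1% and 1.64%, and 6.78% and 1.77%. The median log2 fold changes of the 20 genes were -0.16, -0.24 and -0.10. *Mt3*, a metallothionein best known from brain, had normalised counts of 11, 11 and 5 in the GS samples, 24, 38 and 88 in the DM samples and 19, 10 and 17 in the NO samples. It rose by 2.22 in DM vs. GS (adjusted p = 0.0222), although not without GS replicate 2 or 3 or DM replicate 2 or 3 (adjusted p from 0.0537 to 0.105). *Slc39a11*, a member of the same transporter family as *Slc39a14*, fell by 1.07 in DM vs. GS (adjusted p = 0.00842), in each of the 9 cases, and by 0.86 in NO vs. GS (adjusted p = 0.0131), not without GS replicate 3 (adjusted p = 0.0563).

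*Slc39a4*, a zinc importer of the gut, ranged from 761 to 940 in the GS samples and from 764 to 1033 in the DM samples, against 1089, 2543 and 1793 in the NO samples. It rose by 1.04 in NO vs. GS (adjusted p = 0.0153) and by 1.01 in NO vs. DM (adjusted p = 0.0254), close to the 2-fold minimum. Without NO replicate 2 these were 0.76 (adjusted p = 0.0379) and 0.72 (adjusted p = 0.0679). The call against GS was also lost without GS replicate 2 or 3 or NO replicate 3, and that against DM without DM replicate 1 or 2 or NO replicate 3. *Slc39a8*, a close relative of *Slc39a14*, peaked at 11 in the GS samples, 9 in those of DM and 24 in those of NO, and rose by 1.54 in NO vs. DM (adjusted p = 0.0269). This was lost without any 1 DM replicate or NO replicate 2 or 3 (adjusted p from 0.0516 to 0.0802).

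*Slc30a10*, an exporter of manganese, had normalised counts of 67, 49 and 60 in the GS samples, 20, 20 and 28 in the DM samples and 26, 35 and 24 in the NO samples. It fell by 1.34 in DM vs. GS (adjusted p = 0.0187) and by 1.03 in NO vs. GS (adjusted p = 0.0299). The DM call was lost without GS replicate 1 or 3 or DM replicate 1 or 2, and the NO call without any 1 GS replicate or NO replicate 1 or 3. *Slc30a1*, the zinc exporter that Mtf1 controls together with the metallothioneins, fell by 0.65 in NO vs. GS (adjusted p = 0.0324), under 2-fold, and not without GS replicate 2 or 3 or NO replicate 2 or 3 (adjusted p from 0.0739 to 0.126). *Mtf1* itself gave -0.22 in DM vs. GS (adjusted p = 0.365) and -0.32 in NO vs. GS (adjusted p = 0.0912).

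The 14 tested genes of haem metabolism and the 13 of mitochondrial iron and iron-sulfur clusters included no called gene in any comparison. Over all tested genes, the shares called higher were 2.94%, 10.1% and 6.78%, and those called lower 1.27%, 1.64% and 1.77%. In NO vs. GS, 3 haem genes were higher past the adjusted p, beside 13.4% of all tested genes. The haem-synthesis enzymes *Alad* (0.73, adjusted p = 0.0336), *Cpox* (0.78, adjusted p = 0.0251) and *Fech* (0.44, adjusted p = 0.0432) were those that rose. These 3 were named after their values were seen, and of the alternatives only the fit without NO replicate 2, the highest sample for each, was run for them. It left *Cpox* at 0.48 (adjusted p = 0.0287), *Alad* at 0.55 (adjusted p = 0.107) and *Fech* at 0.35 (adjusted p = 0.119). *Hmox1*, which breaks haem down and releases its iron, had normalised counts of 2591, 2290 and 2565 in the GS samples, 2863, 2338 and 3369 in the DM samples and 2765, 4271 and 3627 in the NO samples. Its NO values lay above all GS values, at 0.50 on the log2 scale (adjusted p = 0.0714), and at 0.35 without NO replicate 2 (adjusted p = 0.21).

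**Figure D5:**
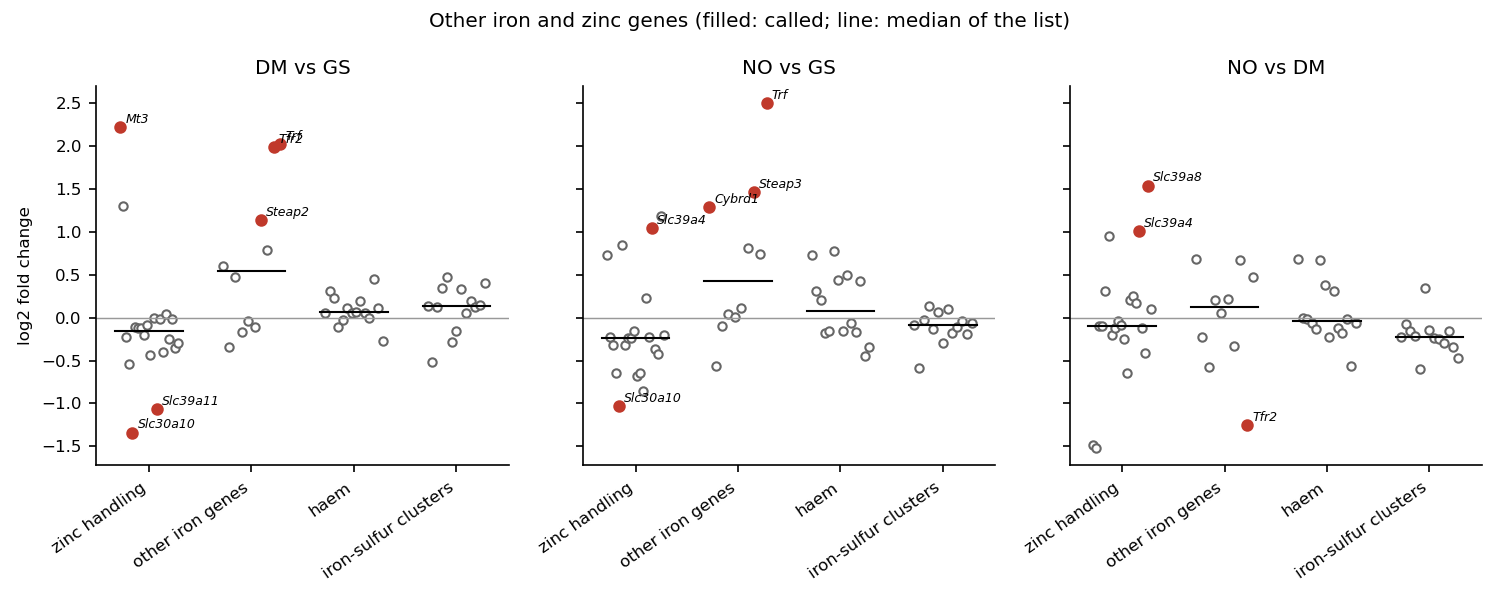
Log2 fold change of the 57 further iron and zinc genes in the 3 comparisons, grouped by list, with the called genes filled and named and a line at the median of each list. Called genes are in the zinc and the other iron list, and none is in the haem or the iron-sulfur list.

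Of the 160 genes with an IRE match in a UTR, 140 were tested. For DM vs. GS 4 were called higher and 1 lower, for NO vs. GS 12 and 1, and for NO vs. DM 11 and 1, with medians of 0.00, 0.00 and 0.03. Of all tested genes, 2.94% were called higher and 1.27% lower in the first comparison, 10.1% and 1.64% in the next and 6.78% and 1.77% in the last. *Tfrc* was the 1 called lower in NO vs. GS.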

How the data were processed

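Total RNA of 9 samples was sequenced by the authors on an Ion Torrent Proton instrument after ribosomal depletion. The medium and replicate number of each sample came from the labels. According to the study's methods, the reads were aligned to GRCm38 with STAR 2.4.0a and counted over exons with featureCounts 1.4.5-p1, and reads of several genes or places were excluded. Use of the strand was not stated. The deposited values are a score, namely counts per gene that the authors scaled by size factors and rounded to whole numbers. They are not raw counts, so the planned count model was not fitted. A sum column was not used.

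The fit took log2(value + 1) of the genes averaging over 5 and used limma 3.58.1 in R 4.3.3 (all 9 samples in one fit, 3 media, no covariate, mean-variance trend, Benjamini-Hochberg adjustment over all tested genes, two-sided). Genes with an adjusted p under 0.05 and a change of at least 2-fold were called. The procedure was tested on simulated data. Ratios were compared with exact permutation tests. Depth was estimated from the spacing of low values. Coordinates and transcripts came from GENCODE M21 and promoters from RefSeq.

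All 10 genes are named, and of the 4 further lists those called in any comparison plus *Hmox1*, *Fbxl5*, *Ncoa4*, *Slc30a1* and *Mtf1*. *Alad*, *Cpox* and *Fech*, the genes too low to test or not found, marker genes and *Alas2* (for its IRE) are named outside this rule. The genes and lists were chosen with earlier results of these data known. The alternatives were other scalings, filters, pseudocounts, moderation and weights, fits of the 6 samples compared, a replicate block, leaving out each sample and, chosen after seeing the data, corrections for GC content (available for 98.9% of tested genes) and transcript length. Samples with the same replicate number deviated weakly together in NO and DM (correlations of 0.16, 0.17 and 0.30 over genes). They did not in DM and GS (-0.18, 0.02 and -0.23) or NO and GS (-0.05, 0.05 and -0.11). The numbers may thus pair NO with DM, which the labels do not say. The main fit left any such pairing out, and the replicate block joined GS by number as well. No fit paired NO with DM alone, so the NO vs. DM p-values are those of unpaired samples unless the block is named.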

Additional observations from a re-analysis of the deposited data

How the results depend on the processing

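Of the 10 genes, *Slc39a14* was called against GS in DM and NO, and *Tfrc* in NO vs. GS, under each of 22 alternatives. Without a minimum fold change the count of called genes was 2 (DM vs. GS) and 1 (NO vs. DM). With the replicate block it stayed at 1 (DM vs. GS), 2 (NO vs. GS) and 0 (NO vs. DM), and the block ended no pass of the adjusted p among the 10 genes. Leaving out 1 sample gave 1 (DM vs. GS), 2 to 3 (NO vs. GS) and 0 (NO vs. DM).

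Of the further genes, 6, 5 and 3 were called for DM vs. GS, NO vs. GS and NO vs. DM. A minimum mean of 50 left 2, 2 and 1, partly since only 48 genes were then tested. No minimum mean gave 3 for NO vs. GS, 1 for NO vs. DM, and no minimum fold change gave 15 and 5. In NO vs. DM, 1 was called in the fit of 6 samples and 1 without the mean-variance trend, and the cause was not tested. With the replicate block there were 5, 4 and 2, as *Trf* in DM vs. GS (adjusted p = 0.0565), *Slc30a10* in NO vs. GS (adjusted p = 0.054) and *Tfr2* in NO vs. DM were lost. Leaving out 1 sample gave 3 to 6, 2 to 5 and 0 to 3, with the lowest counts without GS replicate 3 or DM replicate 2 in DM vs. GS, without GS replicate 3 or NO replicate 3 in NO vs. GS, and without DM replicate 1 or NO replicate 2 or 3 in NO vs. DM. The *Tfrc* to *Fth1* ratio ran from -0.92 to -0.41, -1.97 to -1.45 and -1.24 to -0.74.

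Signs turned in 37 of 1704 single-gene results, none of which passed the test. In DM vs. GS, *Ftl1* was 0.04 under quantile normalisation and 0.03 under equal totals, and GC correction with or without the block put *Ireb2* at 0.12 and *Slc39a4* at -0.13. In NO vs. GS it put *Ftl1* at -0.14 and *Ireb2* at 0.03. In NO vs. DM, *Ireb2* was 0.09 under quantile normalisation and 0.04 under equal totals, *Slc30a10* was -0.03 under quantile normalisation, and length correction put *Slc39a14* at 0.00. Leaving out 1 sample gave -0.26 to 0.17 for *Ftl1* in DM vs. GS, -0.14 to 0.29 for *Ftl1* in NO vs. DM, -0.16 to 0.19 for *Ftl1* in NO vs. GS, -0.25 to 0.03 for *Ireb2* in DM vs. GS, -0.22 to 0.06 for *Ireb2* in NO vs. DM, -0.43 to 0.14 for *Mt1* in NO vs. DM, -0.07 to 0.10 for *Ncoa4* in NO vs. GS, -0.22 to 0.05 for *Slc30a1* in NO vs. DM, -0.17 to 0.18 for *Slc39a14* in NO vs. DM, -0.10 to 0.13 for *Slc39a4* in DM vs. GS and -0.08 to 0.42 for *Slc40a1* in DM vs. GS.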
